A study of Mus musculus with 12 samples.

Results

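The 9 genes Mgmt, Mpg, Ogg1, Apex1, Xrcc1, Parp1, Lig3, Polb and Ercc1 were followed across 4 groups of mouse liver arrays. The study was of chemically induced liver cancer. The genes act in the repair of alkylated and oxidised DNA bases and of the strand breaks that arise during it. They were chosen by name for their role, with earlier results of these data known. Every probe annotated to them was read, which gave 22 of the 45281 probes on the array and 9 of the 19057 genes named on it. The RNA was from the liver of male mice, matched in age, of strain B6. The 4 groups of 3 arrays each were normal hepatocytes, premalignant hepatocytes found as aggregates, non-aggregate hepatocytes, and tumour labelled fully malignant hepatocellular carcinoma (HCC). The sample titles write premalignant for the aggregates alone, but the non-aggregates are described as carcinogen-exposed too. HCC had been induced by injection of DEN (diethylnitrosamine), and the labels place the premalignant cells within that model; dose and age are not given in the sources used here. The arrays were spread over 2 chips, the first shared by normal hepatocytes with HCC and the second by aggregates with non-aggregates.

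Diethylnitrosamine is activated by cytochrome P450 enzymes of the hepatocyte to a species that adds ethyl groups to DNA. Mgmt takes alkyl groups off guanine in a single step and is used up by it, whereas Mpg and Ogg1 are glycosylases that cut out alkylated purines and oxidised guanine and so start base excision repair. Apex1 then nicks the strand at the empty site, Polb fills the gap, Lig3 held by the scaffold Xrcc1 seals it, and Parp1 senses the open break. Ercc1 is the partner of the nuclease Ercc4 (XPF), which cuts beside bulky lesions in nucleotide excision repair.

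In HCC against normal hepatocytes, Polb, Apex1 and Xrcc1 were called lower and Mpg was called higher. Polb fell by 1.26 on the log2 scale (2.39-fold) and Mpg rose by 0.92 (1.89-fold), each with 3 arrays per group, and both calls held under every alternative processing tried. Apex1 fell by 0.71 and Xrcc1 by 0.49, and these calls held in 9 and 8 of 16 alternatives. Both were lost when the arrays were scaled to a common median or by cyclic loess. Both were also lost with the submitters' normalized values and in a fit to only these groups. Mgmt, Ogg1, Ercc1, Lig3 and Parp1 were not called. Of all genes tested, 49% were called in HCC, 23% higher and 26% lower, so calls among these genes are not particular to repair. Between aggregates and non-aggregates 0 of the 9 genes were called, against 0.761% of all genes.

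Levels are log2 intensities after background correction and quantile normalization, and they compare 1 probe between arrays, not 1 probe with another. A change is called at an adjusted p below 0.05 in limma's moderated test, adjusted over the 10641 genes tested. Of the 22 probes 16 passed the filter (detected on at least 3 of the 12 arrays), 12 were detected on all 12 arrays and 6 on none. All 9 genes had at least 1 probe that passed, and the probe with the highest mean stood for the gene. Whether the replicates are from different mice is not stated in the labels, and the p-values then reflect the spread between these arrays, which may be technical.

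Arrays detected between 15354 and 19482 probes, with a mean signal of 314 to 403. All 10 hepatocyte markers were detected in every group, and their summed linear level overlapped between groups (202658 to 215395 in normal hepatocytes, 196709 to 204227 in HCC). Quantile normalization gives all arrays the same set of values, so this overlap does not measure the share of hepatocytes. Within that sum 2 were called higher and 3 lower in HCC, from -1.50 for Ass1, a urea cycle enzyme, to 1.69 for Alb, serum albumin. Markers of other liver cells moved with the groups. The summed level of 10 endothelial markers ran from 1354 to 3903 in normal hepatocytes, 2134 to 2696 in non-aggregates, 4733 to 6876 in aggregates and 7366 to 10541 in HCC, with 9 of 10 called higher in HCC. The sum of 8 macrophage markers ran from 964 to 1046, 759 to 2620, 2035 to 5704 and 7719 to 9338 in the same order, and that of 10 stellate cell markers from 708 to 1584, 629 to 1141, 3002 to 4394 and 7705 to 17031, with 6 of 8 and 9 of 10 called higher in HCC. Of the stellate cell markers, 4 were detected on no normal array and 5 on no non-aggregate array. The 3 lymphocyte markers tested were detected on no array of either of these groups and on HCC arrays, where 2 were called higher. Among 2 neutrophil markers 1 was called higher too. Markers not detected in a group passed the filter through other groups, so their direction against it was in part set by the filter. Of all genes 23% were called higher in HCC. Of the bile duct markers, Sox9 was the 1 that could be tested and was called higher in HCC, while Krt19, Krt7 and Epcam did not pass the filter. The part of these other cells in the results on the repair genes was not tested, and in such bulk RNA fewer cells of a type and less RNA per cell cannot be told apart.

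Promoter sequences are shown for Mpg, the member that was called higher in HCC, and for Apex1, a member called lower, so that the letters upstream of genes that moved in opposite directions can be read. They are RefSeq windows of build GRCm38.p6 that run from 250 bases before to 50 bases after the gene's start, and 8 of the 9 members, all but Polb, had an entry. Mpg lies on chromosome 11 (32226505 to 32232702) and its window is chr11:32226255-32226554 on the plus strand, with the GC box (GGGCGG or, on the other strand, CCGCCC) in capitals. Apex1 lies on chromosome 14 (50924949 to 50927188) and its window is chr14:50924699-50924998 on the plus strand, with the E box CACGTG, which reads the same on both strands, in capitals.
Mpg: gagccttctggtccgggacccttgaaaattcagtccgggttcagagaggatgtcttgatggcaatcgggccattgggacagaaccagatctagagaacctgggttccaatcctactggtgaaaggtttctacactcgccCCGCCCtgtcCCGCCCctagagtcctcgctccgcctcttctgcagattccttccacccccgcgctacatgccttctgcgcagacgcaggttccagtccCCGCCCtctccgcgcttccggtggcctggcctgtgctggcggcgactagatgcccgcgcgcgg
Apex1: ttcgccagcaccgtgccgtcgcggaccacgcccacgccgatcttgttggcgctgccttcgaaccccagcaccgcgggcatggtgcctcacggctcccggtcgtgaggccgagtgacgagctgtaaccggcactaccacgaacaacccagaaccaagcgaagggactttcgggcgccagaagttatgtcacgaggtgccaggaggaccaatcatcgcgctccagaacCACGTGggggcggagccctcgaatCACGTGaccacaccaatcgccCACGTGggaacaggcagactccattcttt
The Mpg window held 3 GC boxes and 0 E boxes and the Apex1 window 3 E boxes and 1 GC box, and each held 2 CCAAT boxes (CCAAT or ATTGG). Of all 32851 promoter windows, 35.7% held a GC box, 37.4% a CCAAT box and 7.15% an E box. Among the members' 9 windows (1 gene had 2) 7 held a GC box. The windows of Parp1 and Lig3, which were not called, held 1 E box each. That of Xrcc1, called lower, held 0. The windows of Mpg and Apex1 held 22 and 31 CpG dinucleotides, against a median of 7 over all windows. These matches describe the letters in the window and are not binding sites.

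In HCC against normal hepatocytes, 4 of the 9 members were called, 1 higher and 3 lower, where 49% of all 10641 genes were called, 23% higher and 26% lower. Arrays of both groups did not overlap for 5 members, against 52.8% of all genes. The median change of the members was -0.10 on the log2 scale against -0.08 over all genes, and their median absolute change was 0.26 against 0.50. The members' share of calls was thus near that of all genes.

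**Figure D1:**
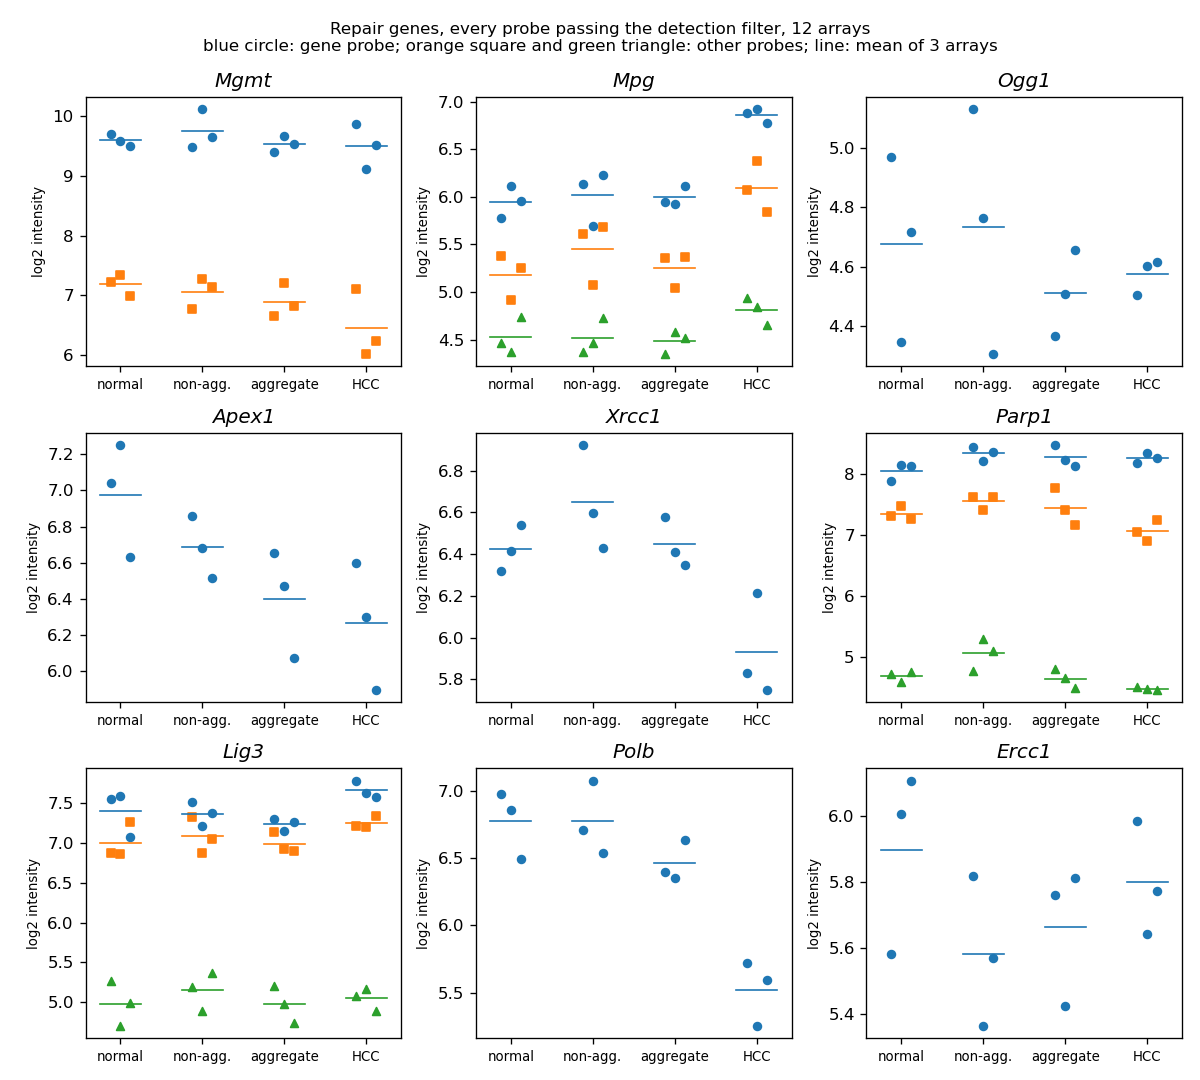
Log2 intensity of every member probe that passed the filter, by group (normal hepatocytes, non-aggregates, aggregates and HCC). Each point is 1 array, each line a mean of 3 arrays, and the vertical axes differ between genes. The 3 HCC arrays lie apart from the other 9 for Polb (5.25 to 5.72) and for the gene probe of Mpg (6.78 to 6.93).

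Mgmt, the direct reversal enzyme, lies on chromosome 7 (136894463 to 137128193). Its gene probe read 9.69, 9.59 and 9.51 in normal hepatocytes and 9.86, 9.11 and 9.52 in HCC. It read 9.49, 10.12 and 9.65 in non-aggregates and 9.41, 9.66 and 9.53 in aggregates. All 4 groups overlapped, and the spread between HCC arrays (SD 0.37) was wider than that between normal arrays (SD 0.09). The HCC difference was -0.10 (SE 0.21, 95% interval -0.54 to 0.35, adjusted p = 0.719, limma). The change was negative in 14 of 16 alternatives and called in 0.

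A second Mgmt probe, also detected on all 12 arrays, differed more. It read 7.22, 7.35 and 6.99 in normal hepatocytes and 7.10, 6.01 and 6.24 in HCC. The first HCC array lay within the normal range and the other HCC arrays below it. Fitted by itself among 16759 probes, of which 47.2% were called, it was lower by 0.73 (SE 0.26, adjusted p = 0.0345, limma). That call was lost with cyclic loess (adjusted p = 0.0926), median scaling (0.388), the submitters' normalized values (0.142) and a fit to only these groups (0.0792). It was also lost without normal replicate 1 (0.0813), normal replicate 2 (0.101), HCC replicate 2 (0.137) or HCC replicate 3 (0.104). The remaining Mgmt probe was detected on no array.

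Mpg, the glycosylase for alkylated purines, was the member called higher. Its gene probe read 5.78, 6.11 and 5.95 in normal hepatocytes and 6.89, 6.93 and 6.78 in HCC. In non-aggregates it read 6.14, 5.70 and 6.23, and in aggregates 5.95, 5.93 and 6.12. The HCC arrays all lay above the other 9, which overlapped among themselves. Mpg rose by 0.92 (SE 0.16, 95% interval 0.56 to 1.27, adjusted p = 0.000642, limma), and the deposited signal before any correction ran from 81.9 to 101 in normal hepatocytes and from 172 to 182 in HCC. The rise was called in 16 of 16 alternatives, between 0.63 and 1.36.

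A second Mpg probe, detected on all arrays, rose too. It read 5.38, 4.91 and 5.25 in normal hepatocytes against 6.08, 6.37 and 5.84 in HCC, with no overlap, a difference of 0.91 (SE 0.21, adjusted p = 0.00324, limma). It was called in all 11 alternatives run for single probes. The remaining probe was detected on the 3 HCC arrays and on no other, so it passed the filter through HCC alone and bears nothing on the direction; it read 4.94, 4.84 and 4.66 there against 4.46, 4.37 and 4.74 in normal hepatocytes, overlapping, and its difference of 0.29 was not called (adjusted p = 0.148, limma).

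Ogg1, the oxidised-guanine glycosylase (chromosome 6, 113326972 to 113334877), was at the edge of detection. Of its 3 probes 2 were detected on no array, and the remaining one on 1 array each of normal hepatocytes, HCC and non-aggregates and on 0 aggregate arrays. That probe read 4.97, 4.34 and 4.72 in normal hepatocytes and 4.50, 4.60 and 4.62 in HCC, and 5.13, 4.76 and 4.30 in non-aggregates and 4.37, 4.51 and 4.66 in aggregates. Groups overlapped and the HCC difference was -0.10 (SE 0.21, 95% interval -0.56 to 0.36, adjusted p = 0.709, limma). A difference in Ogg1 was not detectable at this signal.

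Apex1, the endonuclease for sites that have lost their base, had 1 probe, detected on all arrays. It read 7.04, 7.25 and 6.63 in normal hepatocytes and 6.60, 6.30 and 5.89 in HCC, so that the groups did not overlap, the lowest normal array (6.63) lying just above the highest HCC array (6.60). In non-aggregates it read 6.86, 6.68 and 6.52 and in aggregates 6.66, 6.47 and 6.07, both overlapping each other and HCC. Apex1 fell by 0.71 in HCC (1.64-fold, SE 0.22, 95% interval -1.20 to -0.22, adjusted p = 0.0196, limma). The deposited signals overlapped before correction, from 144 to 155 in normal hepatocytes and 117 to 157 in HCC. The call held in 9 of 16 alternatives. It was lost with cyclic loess (adjusted p = 0.0546), median scaling (-0.26, 0.301), the submitters' normalized values (0.141), a fit to only these groups (0.0552), and without normal replicate 1 (0.0572), normal replicate 2 (0.0794) or HCC replicate 3 (0.0789).

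Polb, the polymerase that fills the gap, showed the widest range of group means of the 9 members (1.26). It lies on chromosome 8 (22628119 to 22653464) and had 1 probe, detected on all arrays. That probe read 6.98, 6.86 and 6.50 in normal hepatocytes and 5.72, 5.25 and 5.60 in HCC. In non-aggregates it read 6.71, 7.08 and 6.54, and in aggregates 6.40, 6.35 and 6.64. The HCC arrays all lay below the other 9, while normal, non-aggregate and aggregate arrays overlapped. Polb fell by 1.26 (SE 0.19, 95% interval -1.67 to -0.84, adjusted p = 0.000225, limma), and the deposited signals did not overlap either, with 127 to 140 in normal hepatocytes and 84.0 to 104 in HCC. The fall was called in 16 of 16 alternatives, between -1.38 and -0.68.

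Xrcc1, the scaffold that holds the ligase, lies on chromosome 7 (24546699 to 24573438). The probe that passed read 6.32, 6.41 and 6.54 in normal hepatocytes and 5.83, 6.21 and 5.75 in HCC. It read 6.92, 6.60 and 6.43 in non-aggregates and 6.58, 6.41 and 6.35 in aggregates. HCC lay below the other groups without overlap. Xrcc1 fell by 0.49 (1.41-fold, SE 0.17, adjusted p = 0.0301, limma), but the deposited signals overlapped, from 101 to 137 in normal hepatocytes and 109 to 126 in HCC. The call held in 8 of 16 alternatives. With median scaling the difference vanished (-0.0011, adjusted p = 0.997), and the call was also lost with cyclic loess (0.174), the deposited normalized values (0.417), a fit to only these groups (0.0777), and without normal replicate 2 (0.0615), normal replicate 3 (0.0834), HCC replicate 1 (0.0770) or HCC replicate 3 (0.0963). A second probe was detected on no array.

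Lig3, the ligase that works with Xrcc1, lies on chromosome 11 (82781109 to 82804274) and had 5 probes, of which 2 were detected on no array. The gene probe read 7.55, 7.59 and 7.08 in normal hepatocytes and 7.79, 7.64 and 7.59 in HCC. It read 7.52, 7.21 and 7.39 in non-aggregates and 7.30, 7.15 and 7.27 in aggregates. The lowest HCC array lay at the highest normal array, and the difference of 0.26 (SE 0.16, 95% interval -0.08 to 0.61, adjusted p = 0.190, limma) was not called. It was called with median scaling (0.58, adjusted p = 0.00488) and with the deposited normalized values (0.38, adjusted p = 0.0286). The other detected probes gave 0.25 (adjusted p = 0.222) and 0.06 (0.802), in the same direction.

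Parp1, the break sensor (chromosome 1, 180568891 to 180600999), gave probes that disagreed. Its gene probe read 7.88, 8.15 and 8.14 in normal hepatocytes and 8.19, 8.35 and 8.27 in HCC. It read 8.45, 8.21 and 8.36 in non-aggregates and 8.48, 8.23 and 8.14 in aggregates. HCC lay above normal without overlap, with a difference of 0.21 that was not called (SE 0.14, 95% interval -0.10 to 0.52, adjusted p = 0.240, limma). It was called with the deposited normalized values alone (0.35, adjusted p = 0.0287).

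A second Parp1 probe, detected on all arrays, lay the other way. It read 7.32, 7.47 and 7.26 in normal hepatocytes and 7.05, 6.90 and 7.24 in HCC, again without overlap, a difference of -0.28 (SE 0.17, adjusted p = 0.190, limma). With median scaling it was 0.06. The remaining probe was detected on no normal or HCC array, so no direction for Parp1 can be given from these data.

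Ercc1, the subunit of the excision nuclease (chromosome 7, 19344067 to 19356524), had 1 probe. It read 5.58, 6.005 and 6.11 in normal hepatocytes and 5.98, 5.64 and 5.77 in HCC. In non-aggregates it read 5.82, 5.36 and 5.57, and in aggregates 5.76, 5.42 and 5.81. All groups overlapped. The HCC difference was -0.10 (SE 0.19, 95% interval -0.50 to 0.31, adjusted p = 0.689, limma), and it turned positive with median scaling (0.43).

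**Figure D2:**
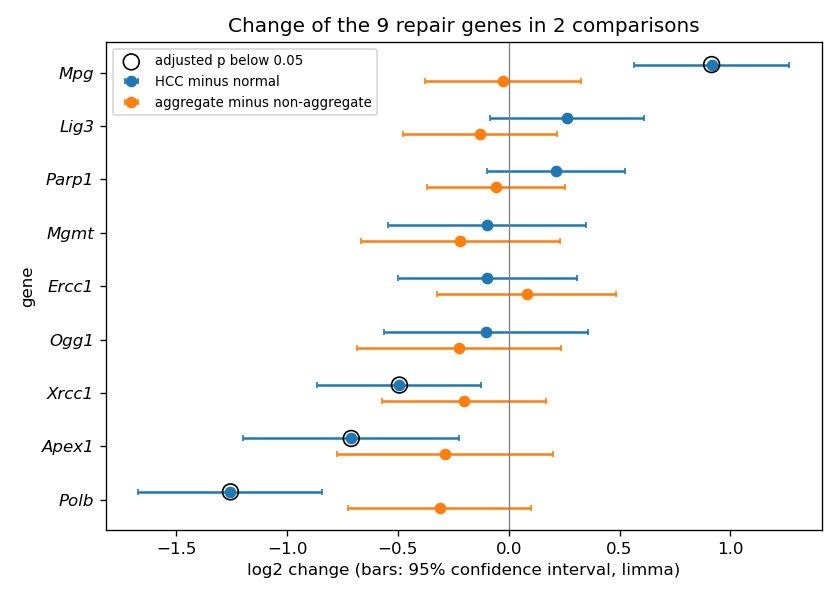
Log2 change of the 9 genes in HCC against normal hepatocytes and in aggregates against non-aggregates, from limma over 12 arrays taken unpaired. Points are estimates, bars 95% confidence intervals and rings mark an adjusted p below 0.05. The 4 rings (Polb, Apex1, Xrcc1 and Mpg) are all in the HCC comparison, and every interval of the aggregate comparison spans 0.

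Scaling moved the HCC comparison as a whole. The median change over all genes was -0.08 with quantile normalization, 0.14 with median scaling and 0.03 with cyclic loess or the deposited normalized values. Genes called higher made up 47% of calls with quantile normalization, 67.1% with median scaling, 56.7% with cyclic loess and 58.8% with the deposited values. Relative to the median of all genes under median scaling, Polb was at -0.91, Apex1 at -0.40, Xrcc1 at -0.14 and Mpg at 1.22.

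**Figure D3:**
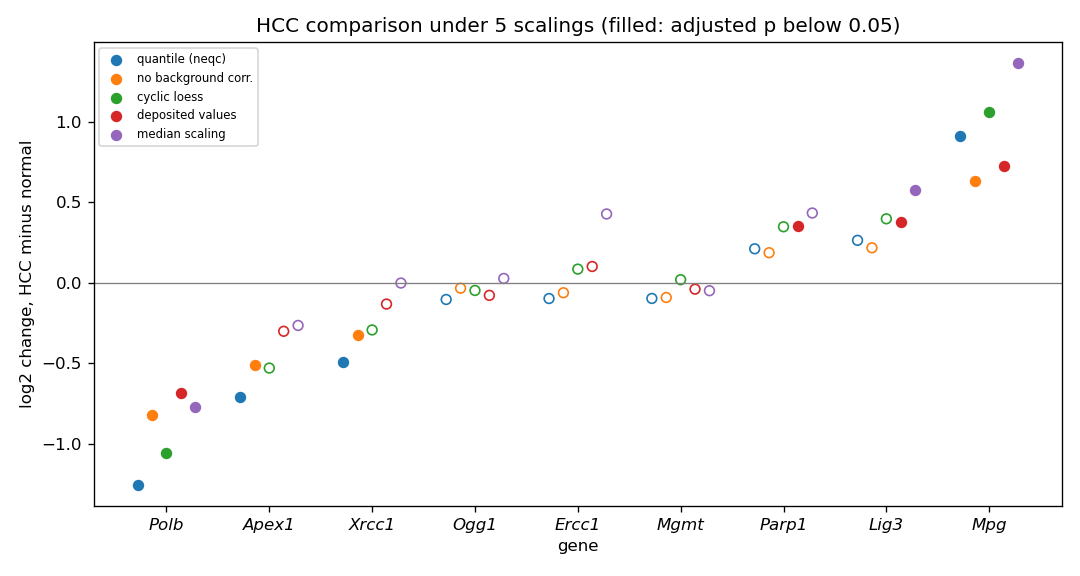
Log2 change of the 9 genes in HCC against normal hepatocytes under 5 treatments of the same arrays; filled points have an adjusted p below 0.05 in limma and open points do not. Polb and Mpg are filled under all 5, and Apex1 and Xrcc1 lie nearest to 0 with median scaling.

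Aggregates were compared with non-aggregates to see which genes differ between these groups. In the main fit, which left the arrays unpaired, 0 of the 9 members were called by limma, against 0.761% of all genes. In that fit 0 had an unadjusted p below 0.05. With the replicate number as a block, 0 were called too. Arrays overlapped for all 9 members, where 17.6% of all genes did not overlap. Taken by same-numbered pairs, Mgmt, Apex1, Xrcc1 and Lig3 were lower in the aggregate in 3 of 3 pairs, as were 26.5% of all genes. In a fit with the replicate block to only these groups, an alternative chosen after seeing the data, the adjusted p of the members ran from 0.155 (Apex1, SE 0.086) to 0.913 (Mpg) in limma. Without the block, the changes ran from -0.31 for Polb (SE 0.19, 95% interval -0.73 to 0.10) to 0.08 for Ercc1 (SE 0.19, interval -0.32 to 0.49). For Mpg the change was -0.03 (SE 0.16, interval -0.38 to 0.33) and for Apex1 -0.29 (SE 0.22, interval -0.77 to 0.20). In 8 of 9 members the estimate was negative, with a median of -0.20 against -0.03 over all genes, and the adjusted p was 0.999988 for each. The markers of endothelial, macrophage and stellate cells named above were higher in aggregates, with 3, 2 and 3 called, and 0, 4 and 2 with the replicate block; their part in these estimates was not tested.

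The change in HCC and the change in aggregates were set against each other within their chips. For 2 of the 9 members the difference was called, against 20.8% of all genes. For Mpg it was 0.94 (SE 0.23, 95% interval 0.44 to 1.44, adjusted p = 0.0132, limma), and it was called in 21 of 21 alternatives. For Polb it was -0.94 (SE 0.27, interval -1.53 to -0.36, adjusted p = 0.0278, limma), called in 12 of 21. The Polb call was lost with cyclic loess (adjusted p = 0.0576), median scaling (-0.45, 0.251) and the deposited values (0.0812), and without normal replicate 1 (0.0682), normal replicate 2 (0.0571), HCC replicate 2 (0.0554), non-aggregate replicate 1 (0.0622), non-aggregate replicate 3 (0.0724) or aggregate replicate 3 (0.0665). For Apex1 the difference was -0.42 (interval -1.11 to 0.26) and for Xrcc1 -0.29 (interval -0.81 to 0.23), neither called. For Lig3 it was called with median scaling (0.72, adjusted p = 0.0214).

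Aggregates and non-aggregates lay on another chip than normal hepatocytes. Chip and group thus cannot be told apart in the comparisons with normal hepatocytes, and both comparisons use the same normal arrays. In non-aggregates against normal hepatocytes 0 of 9 members were called by limma, against 1.49% of all genes, and 0 had an unadjusted p below 0.05. The changes ran from -0.31 for Ercc1 to 0.28 for Parp1 (SE 0.14, adjusted p = 0.379), whose gene probe was the 1 without overlap, where 22.9% of all genes had none. Polb was at 0.00 (SE 0.19, 95% interval -0.42 to 0.41) and Mpg at 0.08 (SE 0.16, interval -0.28 to 0.43).

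In aggregates against normal hepatocytes 0 of 9 members were called by limma, against 5.07% of all genes. At an unadjusted p below 0.05 there was 1, Apex1, at -0.58 (SE 0.22, adjusted p = 0.162, limma). Arrays overlapped for all 9, where 28.4% of all genes did not. Polb was at -0.32 (SE 0.19, interval -0.73 to 0.10) and Mpg at 0.05 (SE 0.16, interval -0.30 to 0.40).

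Of 23 other genes of base excision and alkylation repair 15 could be tested in HCC, and 3 were higher and 3 lower, with a median change of -0.28 against -0.08 over all genes. The share called, 6 of 15, was not above the 49% of all genes. Lig1, the ligase of DNA replication and long-patch repair, rose by 1.54 (SE 0.22, adjusted p = 0.000161, limma), and Fen1, the flap nuclease of the same branch, by 1.27 (SE 0.14, adjusted p = 2.12e-05). Parp2, another break sensor, rose by 0.56 (SE 0.19, adjusted p = 0.0250), a call that held in 11 of 15 alternatives. The uracil glycosylase gene Ung fell by 1.21 (SE 0.27, adjusted p = 0.00263, limma) and Aptx, which clears aborted ligation ends, by 0.87 (SE 0.17, adjusted p = 0.00116). Pcna, the sliding clamp, fell by 0.67 (SE 0.16, adjusted p = 0.00425), but with median scaling by 0.17 (adjusted p = 0.487). The direct reversal genes Alkbh2 and Alkbh3 were at -0.13 (adjusted p = 0.604) and -0.03 (adjusted p = 0.920), and both changed sign between alternatives.

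Lig1 and Fen1 are shown with their arrays because they were the highest of the list. Fen1 read 6.88, 6.91 and 6.89 in normal hepatocytes and 8.04, 8.40 and 8.04 in HCC. Lig1 read 4.89, 5.23 and 4.93 in normal hepatocytes, where 2 of 3 arrays detected it, and 6.57, 6.98 and 6.10 in HCC. Neither gene's groups overlapped. Polb and Lig3 are known for the short-patch branch and Fen1 and Lig1 for the long-patch branch and for DNA replication. In the 17 tested genes of a cell division list, 12 were called higher in HCC and 0 lower, with a median change of 1.11. Of all genes 23% were called higher and 26% lower. On normal arrays 7 of the 17 were never detected, and on HCC arrays 0. Those 7 passed the filter through other groups, so their direction was in part set by the filter. Rrm2, a subunit of ribonucleotide reductase, lay the other way at -1.08 (adjusted p = 0.060, limma), and 1 gene was called lower with the replicate block and without normal replicate 3 or HCC replicate 1. Of the genes called higher Prc1, a spindle protein, was at least 8.40-fold higher and Cdc20, a mitotic ubiquitin ligase activator, at least 4.87-fold, since no normal array detected either. The part of dividing cells in the values of Fen1 and Lig1 was not tested.

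Of 24 other nucleotide excision repair genes 20 were tested, with 2 higher, 4 lower and a median of -0.13; of all genes 49% were called, 23% higher and 26% lower. Gtf2h1, a subunit of the repair and transcription factor TFIIH, fell by 1.15 (SE 0.27, adjusted p = 0.00451, limma). Slx4, a scaffold for nucleases that include Ercc1 with Ercc4, rose by 0.83 (SE 0.26, adjusted p = 0.0182), with arrays that overlapped and a call that held in 10 of 15 alternatives. Cetn2, a partner of the damage sensor Xpc, fell by 0.62 (adjusted p = 0.0159, limma) and Ercc8, which acts at stalled transcription, by 0.62 (adjusted p = 0.0102), but with median scaling these were -0.11 (adjusted p = 0.717) and -0.08 (adjusted p = 0.751). Ercc4 itself was at -0.18 (adjusted p = 0.340, limma). With only the groups compared in the fit, 2 genes of this list were called. Of 5 mismatch repair genes tested, Msh6, which recognises mispaired bases, rose by 0.66 (SE 0.14, adjusted p = 0.00264, limma), and it was the 1 called.

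**Figure D4:**
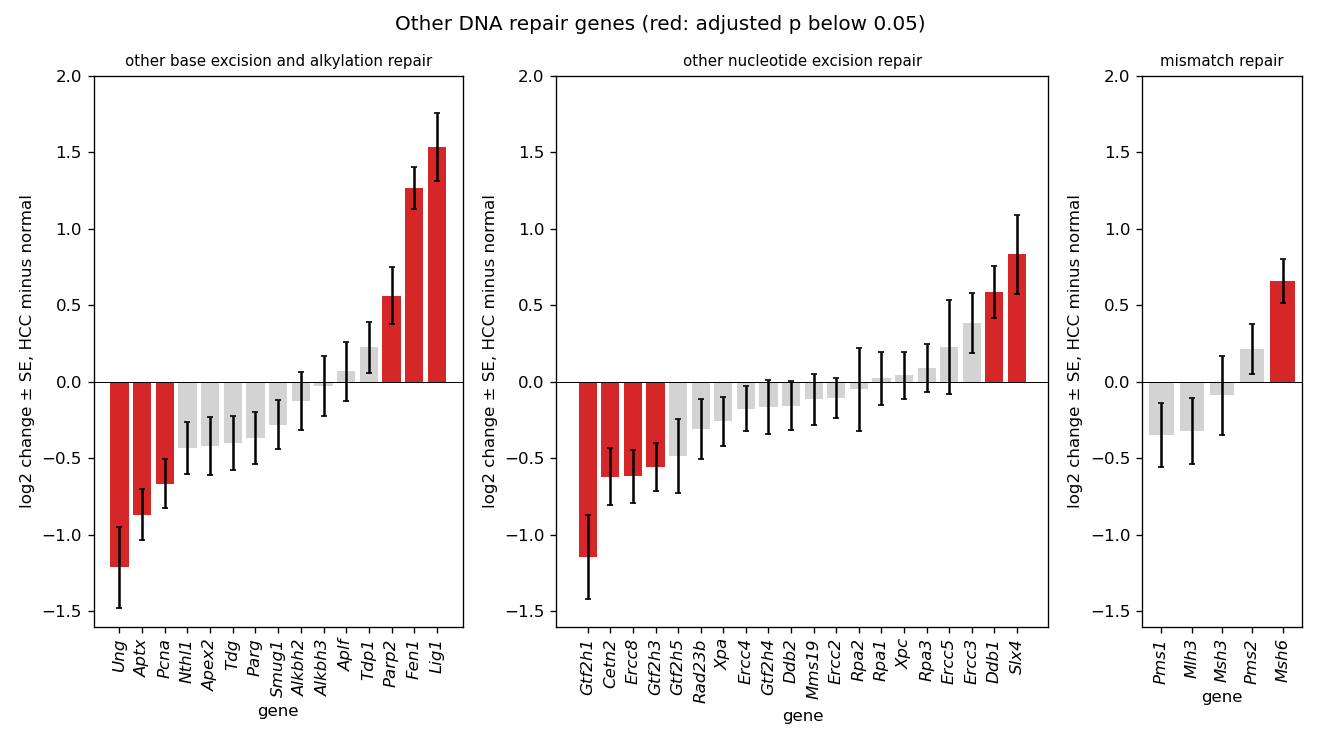
Log2 change in HCC against normal hepatocytes of the tested genes of 3 repair lists, with bars for the estimate, error bars for its SE (limma) and red for an adjusted p below 0.05. Bars run from Ung at -1.21 to Lig1 at 1.54, and each of the longer lists has red bars on both sides of 0.

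In both comparisons with normal hepatocytes across chips and in aggregates against non-aggregates, 0 genes of the 3 repair lists were called by limma. Of all genes 1.49% were called in non-aggregates against normal hepatocytes, 5.07% in aggregates against normal hepatocytes and 0.761% in aggregates against non-aggregates. For the change in HCC set against the change in aggregates, 20.8% of all genes were called. Of the repair lists, Fen1 (1.27, adjusted p = 0.00122, limma) and Lig1 (1.30, adjusted p = 0.0133) were called higher and Aptx (-0.79, adjusted p = 0.0332) lower. Pcna (-0.68, adjusted p = 0.0487) and Ddb1, a damage recognition subunit (0.79, adjusted p = 0.0346), were called too but not with the replicate block, where the adjusted p was 0.0527 and 0.0503.

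The enzymes that activate nitrosamines moved apart in HCC. Cyp2e1, the hepatocyte P450 best known for it, read 15.30, 15.11 and 15.31 in normal hepatocytes and 13.79, 14.37 and 14.34 in HCC, without overlap. It fell by 1.07 (SE 0.16, adjusted p = 0.000183, limma). On the 9 arrays outside HCC its deposited signal stood at 70.1% to 90.2% of that of the array's brightest probe, against 28.6% to 46.1% in HCC; whether the probe was saturated is not recorded in the table, so the size of the fall and the order of the groups outside HCC are uncertain. Cyp2a5, a related P450 whose probe may also read the near-identical Cyp2a4, rose by 1.76 (SE 0.38, adjusted p = 0.00229, limma). Non-aggregates read 15.33, 15.36 and 15.32 and aggregates 15.39, 15.35 and 15.37 for Cyp2e1.

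For the 2 members with the widest range of group means, the genes with the most similar pattern were found as those with the smallest root mean square difference over the 12 arrays, each gene's log2 values being taken minus its own mean. Nearest to Polb were Nol7 at 0.138, Tfb2m at 0.168 and Synj2bp at 0.172. Nearest to Mpg were Ankrd27 at 0.124, Mrvi1 at 0.126 and Wdfy1 at 0.132. Mrvi1 had means of 4.45 in normal hepatocytes, 4.43 in non-aggregates and 4.56 in aggregates. These lie below the lowest detected values of those arrays (4.66 to 4.93), so its pattern outside HCC is at the floor. Ankrd27 lay near that floor outside HCC. Nol7 had group means of 6.85 in normal hepatocytes, 6.81 in non-aggregates, 6.67 in aggregates and 5.67 in HCC, where those of Polb were 6.78, 6.78, 6.46 and 5.52. Ankrd27 had 4.93, 4.85, 4.92 and 5.74, where Mpg had 5.95, 6.02, 5.998 and 6.86.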

How the data were processed

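RNA of 4 groups of mouse liver cells, 3 arrays each, was extracted with Trizol, cleaned and DNase treated, labelled with biotin and measured on Illumina arrays (labels' protocols). In the deposited table each probe has, on each array, a signal intensity and a detection p-value, per the file headers; the intensities are linear and not background subtracted. A second deposited table holds normalized intensities, made by a method that the sources used here do not give. The number of arrays limits the precision.

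Background, estimated through the detection p-values, was removed by normexp with an offset of 16, and quantile normalization and log2 followed (limma's neqc, version 3.58.1, in R 4.3.3). A probe was kept where its detection p was below 0.05 on 3 or more of the 12 arrays. Genes were named from the platform annotation and a RefSeq table of GRCm38.p6 (34885 of 45281 probes had 1 gene, 18 several, 10378 were not listed; 34807 IDs matched); coordinates are that table's. The probe with the highest mean stood for a gene. Group means were fitted over all 12 arrays (lmFit, eBayes, 2-sided) with Benjamini-Hochberg adjustment over 10641 genes. Where no array of the lower group detected a gene, its fold ("at least") used, on each of those arrays, the larger of the gene's own value and the lowest detected one. Figures were drawn with Python 3.11.15 and matplotlib 3.10.9. The fit was tested on simulated data.

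The members and lists were chosen with earlier results of these data known. Named were all members, Cyp2e1, up to 4 called genes of each pathway list with the largest change, and the 3 genes nearest to the 2 members with the widest range of group means; Parp2, Pcna, Ddb1, Ercc4, Alkbh2, Alkbh3, Rrm2, Ass1 and Alb were named after their values were seen. Same-numbered aggregate and non-aggregate arrays deviated together (correlations 0.71, 0.54 and 0.64, and they are also neighbours on the chip). Those numbers were taken as pairs in the replicate block and the pair counts, but not in the main fit. Tried in place of these steps were cyclic loess, median scaling or the submitters' normalized values, omitting the background step, a filter at 6 arrays or none, single probes, a fit to the compared groups alone, the replicate block, each chip normalized alone, and each array omitted in turn.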

Additional observations from a re-analysis of the deposited data

Results flagged for a closer look

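The change of Polb in HCC against normal hepatocytes differed from its change in aggregates against non-aggregates by -0.943827 on the log2 scale (SE 0.27, adjusted p = 0.0278, limma); it was -1.26 in HCC and -0.31 in aggregates. The same difference for Mpg was 0.941474 (SE 0.23, adjusted p = 0.0132, limma), with changes of 0.92 and -0.03. Both were singled out because a test of the difference itself passed the threshold.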

How the results depend on the processing

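The calls of Polb and Mpg in HCC held in 16 of 16 alternatives, and those of Apex1 and Xrcc1 in 9 and 8 of 16. Single results under the alternatives were tallied for the members and for the second Mgmt and Mpg probes, added because they were called. Of these results, 686 kept their direction and side of the threshold, 32 lost a call and 4 gained one. A further 42 turned sign, none of them called in either fit. With median scaling the HCC change became 0.027 for Ogg1 and 0.43 for Ercc1, the aggregate change 0.017 for Mpg, the non-aggregate change against normal hepatocytes 0.10 for Lig3 and 0.14 for Polb, and the difference of both comparisons 0.019 for Apex1, 0.19 for Xrcc1 and 0.28 for Ercc1. With cyclic loess the HCC change became 0.020 for Mgmt and 0.085 for Ercc1 and the aggregate change 0.066 for Mpg. With the deposited values the HCC change became 0.10 for Ercc1, the aggregate change 0.040 for Mpg, the non-aggregate change -0.0037 for Ogg1 and 0.045 for Polb, and the difference -0.0019 for Ogg1. With an array left out, values spanned 0 in HCC for Mgmt (-0.28 to 0.095) and Ercc1 (-0.26 to 0.0069), and in aggregates against non-aggregates for Mpg (-0.19 to 0.080), Parp1 (-0.16 to 0.013) and Ercc1 (-0.028 to 0.20). In non-aggregates against normal hepatocytes they did so for Mgmt (-0.026 to 0.29), Mpg (-0.029 to 0.24), Ogg1 (-0.11 to 0.27), Lig3 (-0.20 to 0.059) and Polb (-0.15 to 0.11). In aggregates against normal hepatocytes they did so for Mgmt (-0.12 to 0.0035), Mpg (-0.034 to 0.13) and Xrcc1 (-0.043 to 0.081), and for the difference for Mgmt (-0.062 to 0.31) and Ogg1 (-0.048 to 0.34). Members called in HCC numbered 4, but 2 with cyclic loess or only the groups compared. With each array left out in turn they numbered 2 to 4. Median scaling gave 3, with Mpg and Lig3 higher and Polb lower. With the deposited values the called members were Mpg, Lig3 and Parp1, higher, and Polb, lower. Members called for the difference of both comparisons numbered 2, but 1 with cyclic loess or the deposited values, and 1 to 2 with an array left out. In the other comparisons 0 members were called under any alternative. Genes called in HCC numbered 5218 (4406 to 5055 with an array left out, 7902 probes with each probe by itself), and for the difference 2214 (1552 to 2540). Between aggregates and non-aggregates 81 genes were called, against 26 without background correction, 216 with median scaling, 153 with cyclic loess, 40 with the deposited values, 27 without a detection filter, 225 with only the groups compared and 16 to 140 with an array left out. In non-aggregates against normal hepatocytes 159 genes were called, 62 with only the groups compared and 20 to 356 with an array left out; in aggregates against normal hepatocytes 539, and 163 to 603. With the replicate block over all arrays 90 genes were called between aggregates and non-aggregates and 5568 in HCC, and no member's call changed; with the block and only the groups compared, chosen after seeing the data, 489 were called in the aggregate comparison. Same-numbered HCC and normal arrays had correlations of -0.01, 0.12 and 0.10 and share only a number. Alternatives for single probes and lists were also chosen after seeing the data. Low signal limits Ogg1, detected on 3 of 12 arrays.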
